A study of Mus musculus with 8 samples.

Results

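Astrocytes in the frontal cortex were examined through 10 genes, the whole set that was asked about: Slc1a2, Slc1a3, Glul, Gja1, Aqp4, Aldh1l1, Aldoc, S100b, Apoe and Gfap. They were taken by symbol from the 55536 genes of the count table, and each of the 10 had exactly one row. Gfap, which marks reactive and white matter astrocytes, was read apart from the 9 others, which serve the resting functions of the cell.

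RNA-seq was performed on frontal cortex from 8-week-old mice of 2 genotypes, with 4 WT libraries and 4 HAR123-KO libraries. HAR123-KO mice lack mouse HAR123, an enhancer inside an intron of Smg6 that was removed from the germ line with CRISPR-Cas9, so the deletion is present in every cell type. Both genotypes were on a C57BL/6J background by repeated backcrossing, the controls were littermates, and the labels name no other allele or treatment. The number of founder lines is not given in the sources used here. The RNA came from whole tissue, so fewer astrocytes and less RNA per astrocyte cannot be told apart in any value below.

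Astrocytes clear the glutamate that neurons release. The transporters GLT-1 (Slc1a2) and GLAST (Slc1a3) carry it into the cell, glutamine synthetase (Glul) converts it to glutamine, and glutamine is passed back to neurons. The potassium channels that take up extracellular potassium, the water channel aquaporin-4 (Aqp4) and the gap junctions of connexin 43 (Gja1) keep the extracellular fluid stable. When tissue is injured, astrocytes become reactive and raise glial fibrillary acidic protein (Gfap), an intermediate filament protein that is sparse in most resting cortical astrocytes.

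Libraries held 13528251 to 17051001 counts in all, and counts on nuclear protein-coding genes other than Lars2 ran from 2786320 to 3732172. Ribosomal RNA sequence annotated as Gm42418 made up 56.8% to 58.0% of each library in WT and 55.1% to 57.4% in HAR123-KO, and the mitochondrial ribosomal RNAs held 9.24% to 9.69% and 10.04% to 10.9%. Here and in what follows, a mean is given ± SD over the 4 libraries of a genotype (n = 4) and a log2 fold change, HAR123-KO against WT, is given ± SE. Exon counts of Smg6, the host of the deleted element, were 209 ± 7.78 in WT and 218 ± 15.4 in HAR123-KO, in normalized counts (raw counts divided by the size factor of the library), and they do not report on the deletion itself. All 10 astrocyte genes were detected in every library, with raw counts from 153 for Aldh1l1 to 22549 for Slc1a2. Markers of cortical neurons were present (5 genes, summed normalized counts of 1973 to 2122 in WT), and so were those of striatal neurons (8 genes, 4177 to 4357 in WT).

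Slc1a2, Slc1a3 and Gja1 passed the test of genotype described further on, and for that reason the bases before their transcription start are shown, with those of Gfap for contrast. A RefSeq promoter was at hand for 9 of the 10 genes. The sequences are promoter windows on GRCm38.p6, 5′ to 3′ on the strand of the gene, and are limited to the bases that GENCODE M21 assigns to no exon. Capitals mark matches, on either strand, to any of 6 short motifs, AP-1 (TGANTCA), the CRE core (TGACG), the GC box (GGGCGG), the CCAAT box (CCAAT), the TATA box (TATAAA) and STAT (TTCNNNGAA). These motifs were chosen with the sequences in view.
Slc1a3, chr15:8710808-8711057, minus strand: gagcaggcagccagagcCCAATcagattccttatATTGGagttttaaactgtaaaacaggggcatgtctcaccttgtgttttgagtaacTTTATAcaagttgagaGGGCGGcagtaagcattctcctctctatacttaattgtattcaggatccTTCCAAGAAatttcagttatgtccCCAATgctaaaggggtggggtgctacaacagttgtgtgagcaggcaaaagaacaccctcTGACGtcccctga
Gja1, chr10:56377050-56377299, plus strand: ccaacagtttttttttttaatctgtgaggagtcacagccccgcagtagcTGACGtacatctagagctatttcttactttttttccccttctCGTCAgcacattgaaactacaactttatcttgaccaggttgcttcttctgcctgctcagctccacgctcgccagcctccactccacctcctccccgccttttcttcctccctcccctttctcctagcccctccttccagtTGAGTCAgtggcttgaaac
Slc1a2, chr2:102706188-102706355, plus strand, ending 83 bases before the start: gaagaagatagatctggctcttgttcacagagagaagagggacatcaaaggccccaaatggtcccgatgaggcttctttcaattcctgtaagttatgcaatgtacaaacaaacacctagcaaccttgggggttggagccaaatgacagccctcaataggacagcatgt
Gfap, chr11:102897201-102897450, minus strand: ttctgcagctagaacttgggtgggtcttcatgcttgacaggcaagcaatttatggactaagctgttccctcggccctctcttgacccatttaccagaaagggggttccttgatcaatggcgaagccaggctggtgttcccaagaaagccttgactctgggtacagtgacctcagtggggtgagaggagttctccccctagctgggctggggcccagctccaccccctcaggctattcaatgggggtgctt
The Slc1a3 window held 3 CCAAT boxes and a single match each to the TATA box, the GC box, STAT and the CRE core. The Gja1 window held 1 AP-1 match and 2 CRE cores, and in neither window did matches overlap. No match to these letters was found in the windows of Slc1a2 and Gfap. Among the 32817 promoter windows of 250 bases in the same set, 33.8% held a CCAAT box, 32.7% a GC box, 17.7% a CRE core, 12.4% a TATA box, 7.01% a STAT match and 6.75% an AP-1 match. The windows of Slc1a2 and Gfap lie in introns of longer GENCODE transcripts of the same gene, and those of Slc1a3 and Gja1 lie before the gene. The CRE core was thus found before Slc1a3 and Gja1 but not in the Slc1a2 window, which describes these letters alone.

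Levels of the 10 genes were first compared per kilobase of exon, the scale on which genes of different length can be set side by side. In WT, Slc1a2 had the highest level, 1428 ± 18.8 normalized counts per kb, followed by Glul with 1302 ± 32.4 and Apoe with 1219.6 ± 21.2. Aldoc had 490.2 ± 17.5, Slc1a3 had 175 ± 4.97 and S100b had 145 ± 12.3 normalized counts per kb. Gfap (63.2 ± 1.57), Aqp4 (61.7 ± 3.87), Gja1 (53.8 ± 2.71) and Aldh1l1 (40.0 ± 2.24 normalized counts per kb) closed the order. Neighbours in this order did not overlap between libraries in WT, except Gfap and Aqp4. In HAR123-KO the mean of Glul, 1345 ± 12.8 normalized counts per kb, stood above that of Slc1a2, 1329 ± 15.9, and the 2 overlapped. Gja1 and Aldh1l1 also overlapped there, and the other 8 places were as in WT. The lengths count every annotated exon, so a level per kb is understated where most transcripts are shorter.

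Expression was then compared between the genotypes gene by gene, to ask whether the astrocyte genes differ without HAR123. Slc1a2, Slc1a3 and Gja1 fell by 6.96%, 11.7% and 15.1% of the WT mean in HAR123-KO, and none of the 10 genes was higher at an adjusted p under 0.05 (DESeq2 Wald test, Benjamini-Hochberg adjustment over all 12758 genes that received an adjusted p). Over those genes, 0.713% were lower and 0.972% were higher at the same limit. Abundant genes reach the limit with smaller differences, and among the 5039 genes whose mean was 150 normalized counts or more, which include all 10 astrocyte genes, 1.59% were lower and 1.89% were higher. No astrocyte gene reached the fold limit that the study set for this tissue, a log2 fold change over 0.5 in either direction, which together with the adjusted p was passed by 0.298% of genes. The largest absolute log2 fold change of the 10 was that of Gja1, 0.24. The median log2 fold change was -0.04 over the 10 genes and -0.07 over the 9 genes without Gfap, beside -0.00 over all genes tested. A positive value was seen for 3 of the 10 genes, against 49.4% of all genes tested. The libraries of the genotypes did not overlap for 3 of the 10, the same 3 genes that passed the test, beside 7.67% of all genes tested and 11.3% of those in the abundant set.

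The main uptake carrier of the forebrain, Slc1a2 (GLT-1, ENSMUSG00000005089, chromosome 2, 102658659 to 102790784, GRCm38), had normalized counts of 18728, 18685, 19106 and 18521 in WT replicates 1 to 4. In HAR123-KO replicates 1 to 4 it had 17754, 17349, 17432 and 17283. Every HAR123-KO library lay below every WT library, and the gap between the groups was wider than the range of either. The mean fell from 18759.9 ± 247 to 17454 ± 209, a log2 fold change of -0.10 ± 0.02 (adjusted p = 9.54e-06). The coefficient of variation of Slc1a2 between libraries was 1.32% in WT and 1.2% in HAR123-KO.

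The second astrocyte glutamate carrier, Slc1a3 (GLAST, ENSMUSG00000005360, chromosome 15, 8634124 to 8710764), had normalized counts of 1487, 1434, 1501 and 1536 in WT. It had 1339, 1307, 1343 and 1272 in HAR123-KO, again with no overlap. The mean fell from 1489.7 ± 42.4 to 1316 ± 33.2, with a log2 fold change of -0.18 ± 0.04 (adjusted p = 0.000288). The calls of both carriers were kept in all 8 fits that each left out a library. Both were lost when library totals, of which Gm42418 is the largest part, replaced the size factors. The log2 fold change was then -0.06 for Slc1a2 (adjusted p = 0.602) and -0.14 for Slc1a3 (adjusted p = 0.0877).

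Gja1 (connexin 43, the main gap junction protein of astrocytes, ENSMUSG00000050953, chromosome 10, 56377330 to 56402513) had normalized counts of 558, 529, 588 and 531 in WT. It had 469, 455, 497 and 452 in HAR123-KO, all below the WT range. The mean fell from 552 ± 27.8 to 468 ± 20.9, a log2 fold change of -0.24 ± 0.06 (adjusted p = 0.00671). Its call was the least firm of the 3. Leaving out WT replicate 1 ended it (adjusted p = 0.0643), as did leaving out WT replicate 3 (0.0968) or HAR123-KO replicate 2 (0.0821) and the use of library totals as size factors (0.1), while the log2 fold change stayed between -0.27 and -0.20 over all alternatives.

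**Figure D1:**
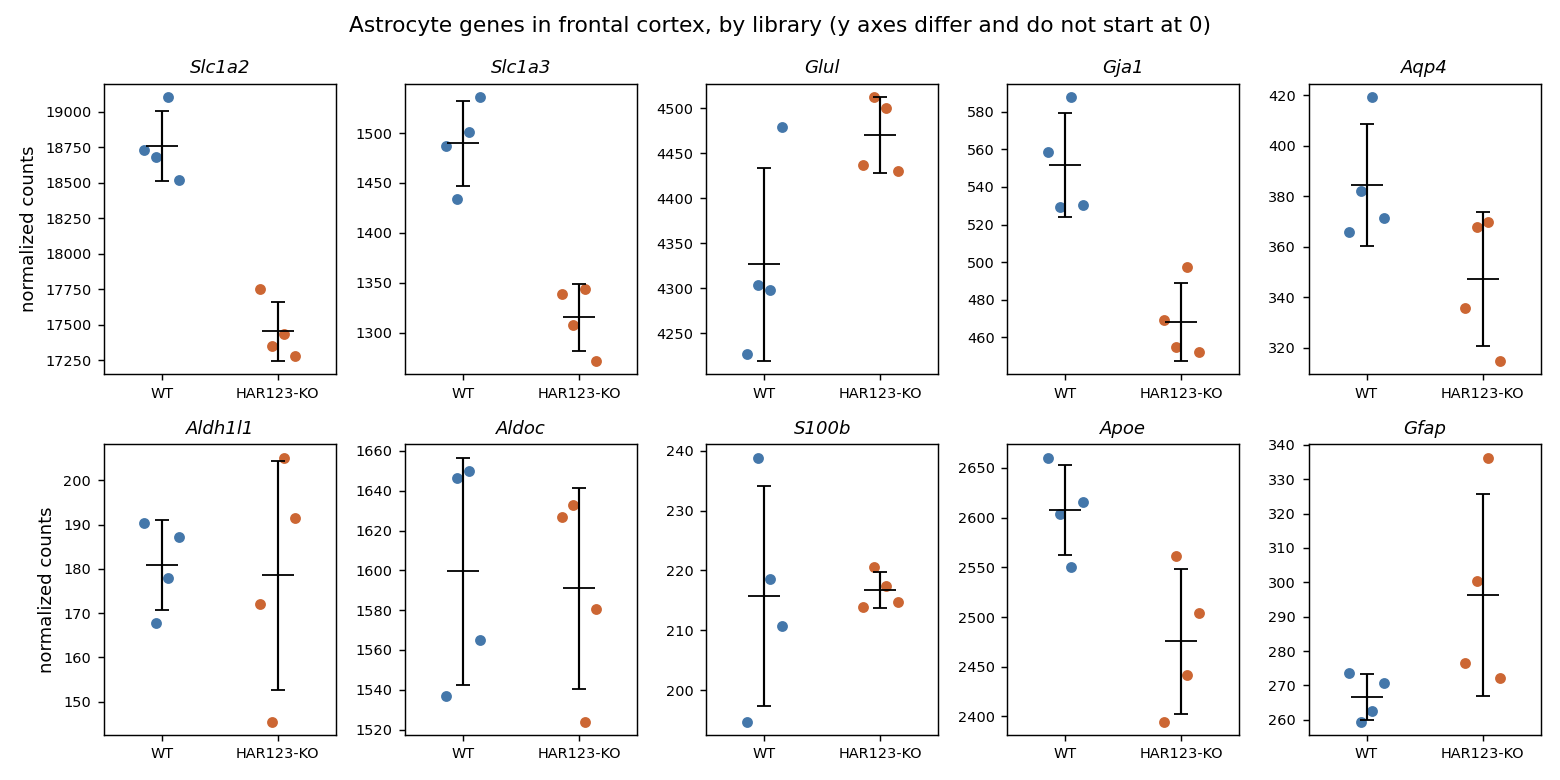
Normalized counts of the 10 astrocyte genes in each library (points; blue WT, orange HAR123-KO), with the mean and SD of the 4 libraries of a genotype in black. The HAR123-KO points lie below all WT points for Slc1a2 (17283 to 17754 against 18521 to 19106), Slc1a3 and Gja1, and overlap the WT points for the 7 other genes.

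Glul (glutamine synthetase, ENSMUSG00000026473, chromosome 1, 153899944 to 153909723), which acts at the next step after uptake, did not pass the test. Its normalized counts were 4226, 4303, 4297 and 4479 in WT and 4437, 4513, 4501 and 4430.5 in HAR123-KO. Of the 4 HAR123-KO libraries, 2 lay above the WT range and the others within it. The log2 fold change was 0.05 ± 0.03 (adjusted p = 0.607), with a 95% interval from -0.00 to 0.10. An exon of Glul overlaps Teddm2 on the other strand, over 3.49% of the Glul exon bases, but Teddm2 had only 122 counts in all 8 libraries, against 35551 for Glul.

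Aqp4 (aquaporin-4, ENSMUSG00000024411, chromosome 18, 15389496 to 15410982) had normalized counts of 366, 382, 419 and 371 in WT and 336, 368, 369.8 and 315 in HAR123-KO. The groups overlapped, with HAR123-KO replicates 1 and 4 below the WT range. Its log2 fold change of -0.15 ± 0.07 had an adjusted p of 0.5 and a 95% interval from -0.29 to -0.01. Apoe (apolipoprotein E, the main lipid carrier that astrocytes secrete, also made by microglia, ENSMUSG00000002985, chromosome 7, 19696109 to 19699188) had 2660.3, 2604, 2550.4 and 2616 normalized counts in WT and 2395, 2562, 2441 and 2505 in HAR123-KO. A single HAR123-KO library, replicate 2, reached into the WT range. The log2 fold change was -0.07 ± 0.03 (adjusted p = 0.348), with a 95% interval from -0.13 to -0.01. For both genes the interval lay below 0 while the adjusted p missed the limit, so a lowering was not established.

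The general markers Aldoc, S100b and Aldh1l1 had the values closest to no difference. Aldoc (the astrocyte form of the glycolytic enzyme aldolase, ENSMUSG00000017390, chromosome 11, 78322968 to 78327781) had 1537, 1646, 1649.7 and 1565 normalized counts in WT and 1627, 1633, 1524 and 1580.3 in HAR123-KO. The values of the genotypes were interleaved, and the 95% interval of its log2 fold change ran from -0.08 to 0.06 (adjusted p = 0.99). S100b (a calcium-binding protein that oligodendrocytes also make, ENSMUSG00000033208, chromosome 10, 76253853 to 76261159) had 195, 239, 219 and 211 normalized counts in WT and 214, 221, 217 and 215 in HAR123-KO. The HAR123-KO values of S100b all lay inside the WT range, and the interval ran from -0.17 to 0.18 (adjusted p = 0.998). Aldh1l1 (a folate enzyme widely used to mark astrocytes, ENSMUSG00000030088, chromosome 6, 90486427 to 90600203) had 190.3, 168, 178 and 187 normalized counts in WT and 172, 145, 205 and 191 in HAR123-KO. Its HAR123-KO libraries spread on both sides of WT, with a coefficient of variation of 14.5% against 5.6%, and the interval from -0.22 to 0.19 (adjusted p = 0.995) would hold a difference as large as that of Slc1a3.

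**Figure D2:**
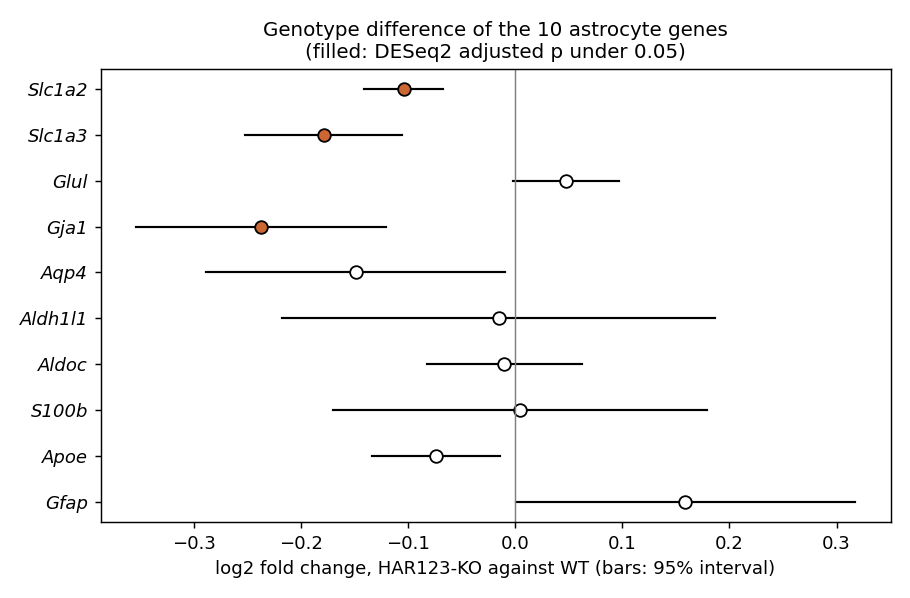
Log2 fold change of each astrocyte gene, HAR123-KO against WT (points), with its 95% interval (bars); filled points have a DESeq2 adjusted p under 0.05. The intervals of Slc1a2, Slc1a3 and Gja1 lie below 0, that of Aldoc spans 0 narrowly, and that of Gfap (0.00 to 0.32) lies on the other side.

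Gfap (ENSMUSG00000020932, chromosome 11, 102887336 to 102900912) had a positive log2 fold change, opposite in sign to the 3 genes that fell. Its normalized counts were 274, 259, 263 and 271 in WT and 276, 300.5, 336 and 272 in HAR123-KO. WT libraries were close together, HAR123-KO replicates 1, 2 and 3 lay above all of them, and HAR123-KO replicate 4 lay inside the WT range. The mean was 267 ± 6.63 in WT and 296 ± 29.4 in HAR123-KO, with a coefficient of variation of 2.49% and 9.92%, beside 5.92% from counting alone. The log2 fold change was 0.16 ± 0.08 (adjusted p = 0.558) with a 95% interval from 0.00 to 0.32, and a difference was not established. HAR123-KO replicate 3 decided its size, since the log2 fold change was 0.09 without it (adjusted p = 0.982). Over the alternatives tried the adjusted p ran from 0.263 to 1.

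Ratios within a library need no scaling factor, and some were formed after the values were seen, so they describe the pattern and carry no test. Slc1a2 had 4.43, 4.34, 4.45 and 4.13 counts per count of Glul in WT and 4, 3.84, 3.87 and 3.9 in HAR123-KO. Slc1a3 had 0.333 to 0.352 counts per count of Glul in WT and 0.287 to 0.302 in HAR123-KO. In both ratios the genotypes did not overlap. Measured against Aldoc instead, the carriers and Gja1 were also lower on average, but the genotypes overlapped, with log2 differences of -0.10 for Slc1a2, -0.17 for Slc1a3 and -0.23 for Gja1. Slc1a2 per Slc1a3 was 12.6 ± 0.406 in WT and 13.3 ± 0.25 in HAR123-KO and overlapped. Gfap had 0.175 to 0.184 counts per count of Slc1a3 in WT and 0.206 to 0.25 in HAR123-KO, with no overlap. The log2 count of Gfap minus the mean log2 count of the 9 other genes ran from -2.19 to -2.08 in WT and from -2.01 to -1.76 in HAR123-KO, a mean difference of 0.23, while the mean log2 count of the 9 genes itself differed by -0.08. Gfap per Aldoc overlapped between the genotypes, with a log2 difference of 0.16.

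**Figure D3:**
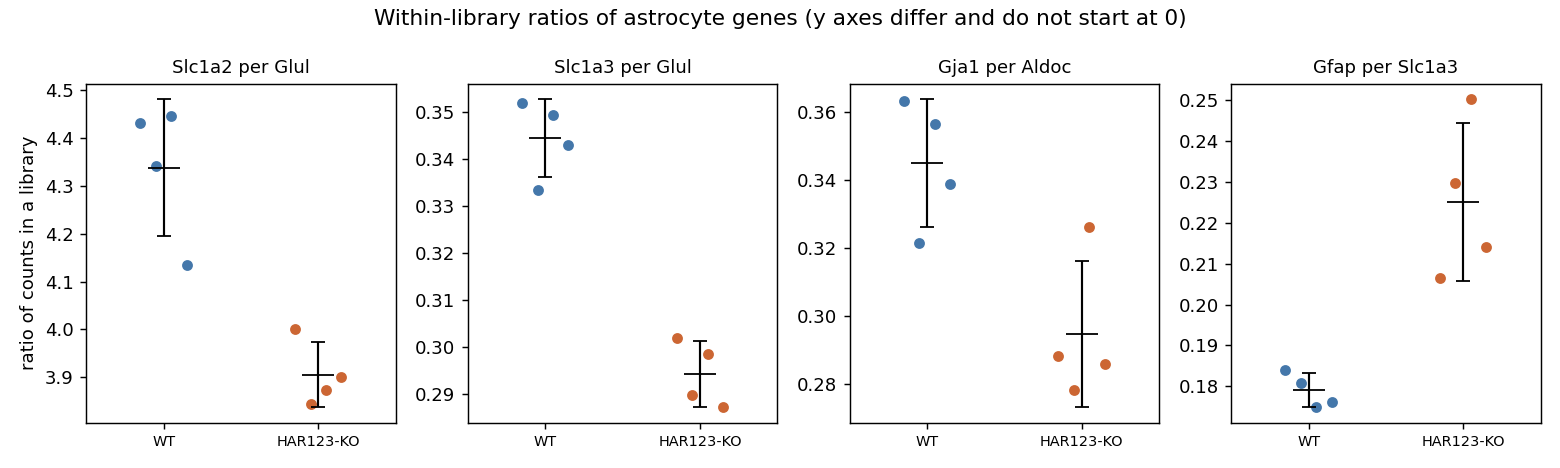
Ratios of the counts of 2 genes in each library (points; blue WT, orange HAR123-KO), with mean and SD in black. Slc1a2 per Glul lies between 4.13 and 4.45 in WT and between 3.84 and 4 in HAR123-KO, while Gfap per Slc1a3 is higher in every HAR123-KO library.

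The genes whose profile over the 8 libraries was most like that of Gfap were S100pbp, Abl2 and Bcas3, among 6589 other genes that averaged 100 normalized counts or more. Likeness was the root mean square difference of log2 normalized counts centred on their mean, which was 0.0457 for S100pbp, 0.0481 for Abl2 and 0.0516 for Bcas3. Each of the 3, like Gfap, was highest in HAR123-KO replicate 3, and none passed the test of genotype.

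Genes of 9 related astrocyte lists were examined next, 123 in all, of which 122 had a row under the listed symbol (Pc had none) and 89 received an adjusted p. Of these, 3 were higher and 8 were lower in HAR123-KO, and the median log2 fold change of the 89 was -0.00. At the same limit, 0.972% of all genes tested were higher and 0.713% were lower. In the abundant set the shares were 1.89% and 1.59%. The calls stood in 4 of the 9 lists. In the glutamate and glutamine list, 1 gene was higher and 3 were lower among 15 tested. The astrocyte glutamine exporter Slc38a3 (SNAT3) was lower, with 250.3 to 261 normalized counts in the WT libraries and 183 to 198 in those of HAR123-KO. Its log2 fold change was -0.42 ± 0.09 (adjusted p = 0.000245). Slc7a11 (xCT, which exports glutamate in exchange for cystine) had 249 to 287 normalized counts in WT and 191 to 211 in HAR123-KO, a log2 fold change of -0.41 ± 0.09 (adjusted p = 0.000401). Slc6a11 (GAT3, the astrocyte GABA carrier) had 418 to 463 normalized counts in WT and 341 to 406 in HAR123-KO. Its log2 fold change of -0.25 ± 0.07 (adjusted p = 0.0159) was fragile, since omitting any of WT replicates 2, 3 and 4 and HAR123-KO replicates 2 and 4 ended the call.

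The gene of this list that rose was Grm5, a glutamate receptor that neurons carry in adult tissue, named here beyond the rule because it was the only rise. It had 1090.1 to 1215 normalized counts in WT and 1307 to 1330.3 in HAR123-KO, a log2 fold change of 0.19 ± 0.04 (adjusted p = 0.000425). The neuronal glutamate carrier Slc1a1 had a log2 fold change of 0.10 ± 0.07 (adjusted p = 0.769). In this list the genes that fell are carriers of the astrocyte membrane, and the enzymes Glud1, Got1 and Got2 did not pass the test (log2 fold changes from -0.03 to 0.14).

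In the list of ion pumps, channels and coupling, 1 of 12 genes tested was lower and none was higher. The potassium channel Kcnj10 had a log2 fold change of -0.13 ± 0.06 (adjusted p = 0.411), and Gjb6, the other astrocyte connexin, had -0.09 ± 0.14 (adjusted p = 0.961).

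Among 17 other astrocyte genes, 2 were higher and 3 were lower. Cst3 (cystatin C, a secreted protease inhibitor that microglia also make) fell from 1677 ± 71.1 to 1368 ± 78.4 normalized counts, a log2 fold change of -0.29 ± 0.04 (adjusted p = 2.38e-10). Its call, like those of Slc38a3, Slc7a11, Grm5 and Mfge8, was kept in all 8 fits that left out a library and with library totals as size factors. Plpp3, a lipid phosphatase, had a log2 fold change of -0.21 ± 0.06 (adjusted p = 0.0159) and lost its call when any of WT replicates 1 and 2 and HAR123-KO replicates 2 and 3 was omitted. Mfge8, a secreted protein that bridges apoptotic cells to phagocytes, rose from 233 ± 10.8 to 308 ± 10.3 normalized counts, with a log2 fold change of 0.40 ± 0.08 (adjusted p = 0.0001). Beyond the rule, Ndrg2 was lower (log2 fold change -0.16 ± 0.04, adjusted p = 0.00659) and Clu was higher (0.13 ± 0.04, adjusted p = 0.0179). The call of Ndrg2 ended when either WT replicate 4 or HAR123-KO replicate 4 was omitted, and that of Clu when any of WT replicates 2 and 4 and HAR123-KO replicates 1 and 3 was. With library totals as size factors, the calls of Slc6a11, Plpp3 and Ndrg2 were also lost. Sparcl1, with the highest mean count of the list, had a log2 fold change of 0.00 ± 0.03 (adjusted p = 0.998).

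No gene passed the test among 12 of glycolysis and lactate, 10 of lipid carriage and 12 of synapse formation and matrix, with 1 gene in each list at an unadjusted DESeq2 p under 0.05 and 0 called by edgeR. The genes with the highest mean counts in these lists were Aldoa, Lrp1 and Ncan, with log2 fold changes of 0.02 ± 0.03, -0.00 ± 0.03 and -0.04 ± 0.04.

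Reactive genes were mostly too low to test. Of 16 genes shared by kinds of reactive astrocyte, 7 received an adjusted p and 0 passed the test by DESeq2 or edgeR, with 1 gene at an unadjusted p under 0.05. Vim, the intermediate filament partner of Gfap, had a log2 fold change of -0.12 ± 0.16 (adjusted p = 0.944), and Serpina3n had 0.20 ± 0.29 (adjusted p = 0.953). Synm, with the highest mean count of the list, had 0.03 ± 0.10 (adjusted p = 0.992). Lcn2, Timp1 and Cxcl10, which rise strongly in acute injury, had means of 0.381, 0.993 and 0.212 normalized counts over the 8 libraries. Of the 12 genes of the inflammatory A1 list, 2 were tested, and H2-D1 was lower, with 87.2 ± 9.25 normalized counts against 56.2 ± 3.87 in HAR123-KO and a log2 fold change of -0.63 ± 0.16 (adjusted p = 0.00619). H2-D1 is a class I antigen gene that most cell types express, and its reads can match related genes, which leaves the count uncertain. Omitting WT replicate 1 or HAR123-KO replicate 2 ended the call, and DESeq2 gave no adjusted p when HAR123-KO replicate 4 was omitted. Of the 12 genes of the injury-related A2 list, 2 were tested and 0 passed the test by DESeq2 or edgeR, with 1 gene at an unadjusted p under 0.05. Ptgs2, with the highest mean count of that list, had a log2 fold change of -0.00 ± 0.22.

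**Figure D4:**
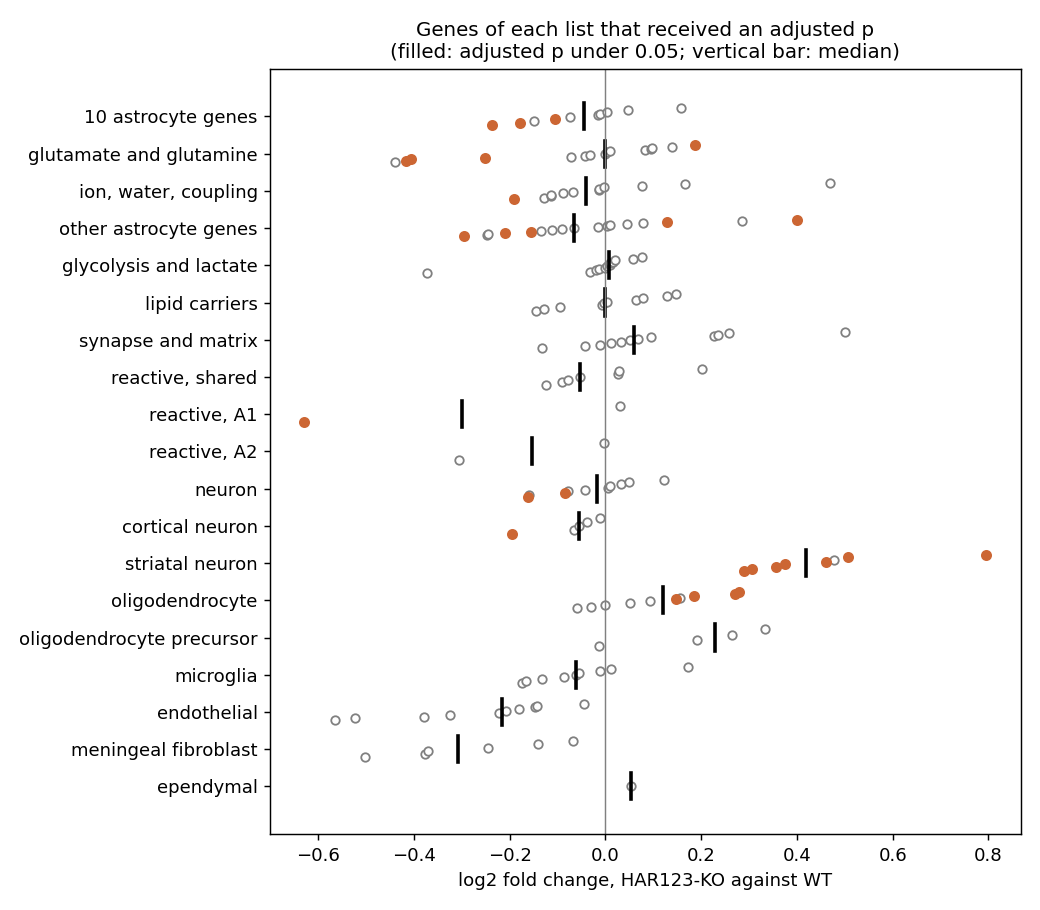
Log2 fold change, HAR123-KO against WT, of each gene with an adjusted p in the 10 astrocyte genes, the 9 astrocyte lists and 9 lists of markers of other cells (points, filled where the adjusted p is under 0.05; vertical bars are medians). Filled points lie on the lower side for the 10 astrocyte genes and on the higher side for striatal neurons (7 of 8) and oligodendrocytes (4 of 10); choroid plexus markers, with values beyond the axis, are left out.

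Markers of other cells moved with genotype beside these results. The counts of markers below stand beside 0.972% of all genes tested that were higher and 0.713% that were lower. Of 8 striatal neuron markers, 7 were higher, and their summed normalized counts were 4177 to 4357 in WT and 5512 to 5707 in HAR123-KO. Of 10 oligodendrocyte markers, 4 were higher, with sums of 15826 to 16343 in WT and 17956 to 18249.8 in HAR123-KO. Of 10 general neuron markers, 2 were lower, with sums of 33090.3 to 33745 in WT and 32179.9 to 32582 in HAR123-KO. Of 5 cortical neuron markers, 1 was lower, and the sums were 1973 to 2122 and 1892 to 1954. Sums of endothelial markers were 522 to 572 in WT and 458 to 482 in HAR123-KO, and those of meningeal fibroblast markers were 182 to 223 and 154 to 178. None of these 6 sums overlapped between the genotypes. Among single genes, 7.67% of all tested did not overlap, and no such share was formed for sums. Microglia markers overlapped (1152 to 1256 and 1112 to 1159), as did ependymal markers (52.9 to 66.9 and 51.9 to 76.6). Choroid plexus markers summed to 93.4 to 102.7 in WT and 727 to 766 in HAR123-KO, most of it Ttr, and both members with an adjusted p were higher. Oligodendrocyte precursor markers summed to 599 to 628 in WT and 636 to 727 in HAR123-KO. Neither the precursor sums nor the choroid plexus sums overlapped between the genotypes. No marker passed the test among 10 endothelial, 6 meningeal, 9 microglial, 4 precursor and 1 ependymal genes with an adjusted p, edgeR called 0 in each list, and an unadjusted p under 0.05 was given to 3 endothelial and 2 precursor markers. The 9 astrocyte genes other than Gfap summed to 29948 to 30509 in WT and 28243 to 28743 in HAR123-KO, a sum in which Slc1a2 is the largest part. The part of these shifts in the values of the astrocyte genes was not tested.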

How the data were processed

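RNA was extracted from 8-week-old mouse frontal cortex, depleted of ribosomal RNA and sequenced as directional paired-end libraries, 4 for each genotype. Per the labels and methods, the authors aligned reads with STAR 2.5.2b to GRCm38 (Ensembl 96) and deposited raw read counts over the exons of each gene, made with featureCounts. Settings for strand and for reads with several matches are not given in the sources used here. All 55536 identifiers matched GENCODE M21 with the same start and end. The table has 0 unused columns per sample.

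DESeq2 1.42.0 in R 4.3.3 was run on all genes with genotype as the only term, median-of-ratios size factors and an independent filter tuned to 0.1, which stopped at a mean of 17.6 normalized counts. A gene passed the test with a Benjamini-Hochberg adjusted p under 0.05. Intervals are Wald intervals at 95%. edgeR 4.0.16 (quasi-likelihood, TMM, filterByExpr) and limma 3.58.1 (voom) were alternatives, as were other size factors and filters, stricter limits, a replicate block and leaving out each library. The tests were first checked on simulated counts. There DESeq2 recovered 61% of 100 genes changed 1.2-fold and 100% of 100 genes changed 1.5-fold. Smaller changes, such as those of the astrocyte genes, were not simulated.

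Libraries of a genotype differed by more than sampling noise (chi-square per degree of freedom from 1.21 to 1.30 in 12 pairs) and were used as separate replicates. The labels number them without saying how they were collected, so p-values measure the spread between these libraries. Counts carry no molecular tags, so intervals cover neither amplification nor mapping error.

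The 10 genes and the lists were chosen with earlier results of these data known. Named genes were all 10, up to 3 called genes with the largest fold change and the gene with the highest mean count of each astrocyte list, and the 3 genes most like Gfap. Genes outside this rule are named for contrast, chosen after their values were seen. Symbols with 2 rows (Aldoa) were read from the row with more counts. Promoter sequences are from RefSeq. The values of some list genes are not reported here.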

Additional observations from a re-analysis of the deposited data

How the results depend on the processing

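The count of astrocyte genes past the test, 3 lower and 0 higher, was 3 with edgeR, with limma-voom, with TMM factors, with either scaling to protein-coding genes, without the independent filter, with at least 10 counts in 4 libraries and at an adjusted p under 0.01. It was 0 with library totals as size factors, where the median log2 fold change of all genes moved from 0.00 to 0.04 and that of the 10 genes from -0.04 to -0.01, and it was 2 to 3 when a library was left out. The count past both limits was 0 under all alternatives. The count of list genes past the test was 11, and 8 to 10 when a library was left out. Over all genes, 215 were past the test, and 126 to 185 when a library was left out.

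With the replicate number as a block, 0 of the astrocyte genes, 1 list gene (Cst3) and 20 genes in all passed the test. The numbers did not pair the libraries. Over 8793 genes, the deviations of same-numbered libraries from their group means had correlations from -0.02 to 0.02, and only 1 of 4 WT libraries correlated best with its own number. None of the 10 genes changed sign with a call, but Aldh1l1, Aldoc and S100b, which had values near 0, turned sign in 5, 4 and 3 of 17 alternatives. Aldh1l1, S100b, Gfap and Aqp4 had the fewest counts and an SE of 0.07 to 0.10. The coefficient of variation between libraries was 5.6% in WT and 14.5% in HAR123-KO for Aldh1l1, where counting alone would give 7.43%. For Gfap it was 2.49% in WT and 9.92% in HAR123-KO, where counting alone would give 5.92%, so the WT libraries lay closer together than counting error.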
